A study of Homo sapiens with 4 samples.

Results

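The loci described here are windows around 10 genes that ERK (MAPK) signalling switches on: the phosphatase genes DUSP6, DUSP4 and DUSP5, the Sprouty genes SPRY2 and SPRY4, the ETS factor genes ETV4 and ETV5, and PHLDA1, EGR1 and CCND1. Chromatin accessibility was read from ATAC-seq peak lists of BCPAP, an established human papillary thyroid cancer line that carries an activating BRAF mutation. The groups were BCPAP cells treated with 5-azacytidine (2 libraries) and untreated BCPAP cells (2 libraries). The labels give no dose and no duration, and they do not say that replicates were separate cultures, so the spread between libraries may be technical. The windows, each of 45 kb or more on the hg19 build, are given by position. Overlapping peaks (1 bp or more) were joined across the 4 lists, which gave 219 regions in the 10 windows, out of 373425 regions on chromosomes 1 to 22 and X.

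ERK signalling limits itself by inducing its own inhibitors. DUSP phosphatases remove the activating phosphates from ERK, and Sprouty proteins act further up, between receptor tyrosine kinases, RAS and RAF. Transcription factors of the ETS family and immediate-early factors such as EGR1 carry the signal to target genes, and transcript levels of such genes are widely used as a readout of ERK output in BRAF-mutant thyroid cancer. 5-Azacytidine is a cytidine analogue that is built into nucleic acids, traps DNA methyltransferases and lowers CpG methylation. In ATAC-seq a transposase places sequencing adapters in exposed DNA, and open sites collect reads.

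Promoter sequences are given as background on CpG content and on short binding motifs. Methylation was not measured in these libraries. From the RefSeq promoter table (build GRCh38.p14), entries were used for 5 of the 10 genes: DUSP6, SPRY2, SPRY4, PHLDA1 and EGR1. For the other genes no entry was used, which does not show that the table lacks them. The stretches shown are the 250 bases before the start of 4 of them, chosen to show 1 ERK phosphatase, both Sprouty genes and the immediate-early factor. Capitals mark 3 motifs searched on both strands: the CArG box (CC, then 6 bases that are A or T, then GG), which serum response factor binds, the ETS core CGGAA and the short CRE motif TGACG. EGR1 is at chr5:138465229-138465478 (plus strand), SPRY2 at chr13:80341127-80341376 (minus strand; the first of 3 entries), SPRY4 at chr5:142324248-142324497 (minus strand) and DUSP6 at chr12:89352502-89352751 (minus strand).
EGR1: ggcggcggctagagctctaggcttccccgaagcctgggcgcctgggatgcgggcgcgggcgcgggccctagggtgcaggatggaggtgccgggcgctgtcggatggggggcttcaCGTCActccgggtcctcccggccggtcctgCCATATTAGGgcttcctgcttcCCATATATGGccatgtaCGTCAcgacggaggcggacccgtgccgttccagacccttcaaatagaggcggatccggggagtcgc
SPRY2: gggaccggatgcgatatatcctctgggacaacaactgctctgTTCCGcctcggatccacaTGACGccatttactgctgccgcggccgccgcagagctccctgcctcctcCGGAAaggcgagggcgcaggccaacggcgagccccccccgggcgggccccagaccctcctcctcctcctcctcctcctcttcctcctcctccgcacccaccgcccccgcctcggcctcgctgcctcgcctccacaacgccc
SPRY4: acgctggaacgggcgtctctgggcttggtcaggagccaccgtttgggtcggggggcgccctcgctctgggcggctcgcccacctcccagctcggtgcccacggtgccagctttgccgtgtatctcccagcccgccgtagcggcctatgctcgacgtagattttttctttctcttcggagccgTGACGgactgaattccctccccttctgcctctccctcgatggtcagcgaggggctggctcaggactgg
DUSP6: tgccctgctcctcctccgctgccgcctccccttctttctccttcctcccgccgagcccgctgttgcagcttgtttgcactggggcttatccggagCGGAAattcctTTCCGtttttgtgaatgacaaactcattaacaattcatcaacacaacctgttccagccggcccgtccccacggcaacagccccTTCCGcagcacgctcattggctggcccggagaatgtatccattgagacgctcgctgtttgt

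The EGR1 promoter held 25 CpG, the SPRY4 promoter 22 and the DUSP6 promoter 16, against a median of 11 over the 35116 promoters of the table. The 3 SPRY2 entries held 23 (the one shown), 13 and 5, and the PHLDA1 promoter, not shown, held 26. EGR1 had 2 CArG boxes, the nearer of them 83 bases before the start, and 2 CRE sites of the short form. DUSP6 had 3 ETS cores, at 155, 144 and 61 bases before the start, and the SPRY2 entry shown had 2, with 0 in its other entries. PHLDA1 had 2 ETS cores, and SPRY4 and EGR1 had 0. Over all promoters of this length, 1.16% held a CArG box, 30.3% an ETS core and 21.2% the short CRE motif. These positions are on GRCh38 and were not carried to hg19, so no peak is assigned to a promoter here. Whether a region is exonic, intronic or in a UTR was not analysed here, nor were thyroid markers, markers of other cells or further genes of the pathway, all of which need gene positions on hg19. The windows can also reach neighbouring genes, for example POC1B beside DUSP6 and NDFIP1 beside SPRY4 in RefSeq order, so a region in a window is not thereby a region of the named gene.

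The measure used below is the read coverage at the summit, which the fold enrichment in the deposited lists gives in whole reads. A region takes its highest peak in each list, and values are given for replicate 1 and then replicate 2. The 5-azacytidine lists held 259572 and 245142 peaks and the untreated lists 221110 and 223345. The total number of reads is unknown. In the 105414 regions found in all 4 lists (shared regions), median coverage was 11 and 16 reads in the 5-azacytidine libraries, against 23 and 18 reads in the untreated libraries. Coverage was therefore scaled by factors of 0.701 and 0.979 (divisors) for 5-azacytidine and 1.39 and 1.08 for untreated libraries. No peak in any list had under 4 reads. Between 20685 and 36194 peak numbers per list were missing from the numbering, and the labels give no reason.

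The 10 windows held 242 and 267 peaks in the 5-azacytidine lists, against 223 and 227 in the untreated lists. The means were 254.5 ± 17.7 and 225 ± 2.83 peaks (SD, n = 2 each), 13.1% more with 5-azacytidine, beside 13.6% more over all peaks. With 2 libraries a group, an exact permutation test (two-sided) cannot go below the p of 0.33 found here. Both 5-azacytidine lists held more peaks than both untreated lists at 3 loci, and fewer at 0 loci. Of all 50 kb tiles with at least 5 regions, 23.7% had both 5-azacytidine lists above and 8.59% had both below. The 3 loci were SPRY4 (36 and 38 peaks with 5-azacytidine, 28 and 29 untreated), EGR1 (40 and 43 against 34 and 36 untreated) and CCND1 (41 and 43 against 27 and 39 untreated). At the other 7 loci the groups overlapped, with the widest spread at DUSP5 (30 and 44 peaks with 5-azacytidine, 40 and 30 untreated).

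**Figure D1:**
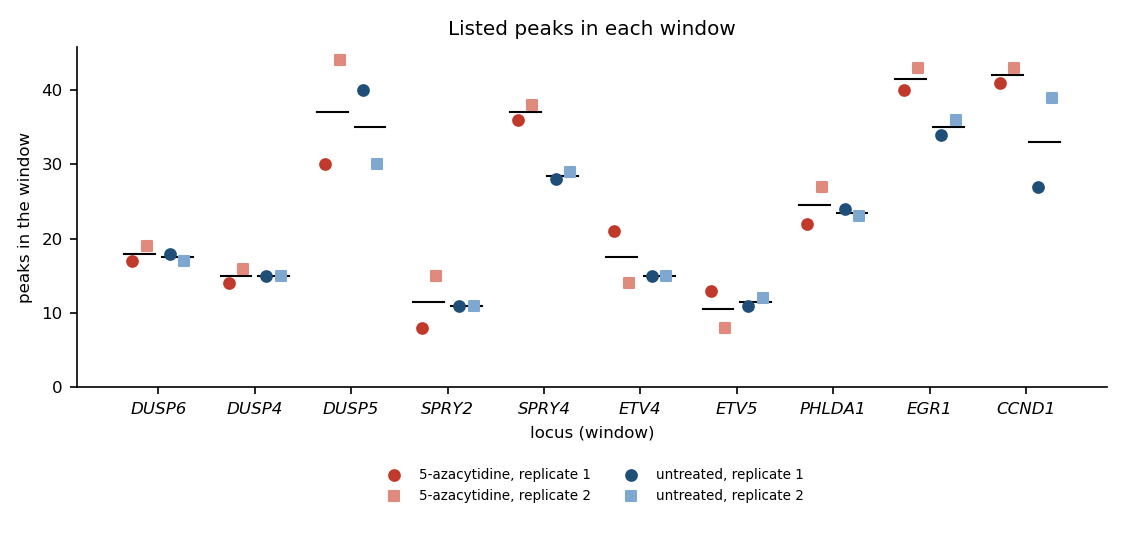
Peaks listed in each of the 10 windows (y axis, number of peaks; x axis, locus), with 5-azacytidine libraries in red and untreated libraries in blue; each point is 1 library and each bar a group mean. The groups are apart at SPRY4, EGR1 and CCND1 and overlap at the other 7 loci.

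Of the 219 regions, 99 were shared by all 4 lists (45.2%, against 28.2% of all regions), 10 were gained (a peak in both 5-azacytidine lists and in neither untreated list) and 11 were lost (the reverse). The shared regions carry most of the coverage and were tested with limma on log2(scaled coverage + 1), fitted over all 105414 shared regions with Benjamini-Hochberg adjustment. At an adjusted p under 0.05, 9 of the 99 changed, beside 4.44% of all shared regions. Coverage was higher with 5-azacytidine in 6 of them (background 1.94%) and lower in 3 (background 2.51%). In all 6 higher regions both 5-azacytidine libraries exceeded both untreated libraries in unscaled reads as well, and in all 3 lower regions both lay below them. The calls need scaling of the lists: without it no region in the genome passed, and without untreated replicate 1 none passed either. With scaling and all libraries, 32 of the 99 had an unadjusted limma p under 0.05, beside 20.1% of all shared regions. Without scaling 20 of the 99 had one, and the share over all regions is not given for that setting. Without untreated replicate 1 the adjusted p of the 9 called regions was 0.311 to 0.457. Quantile normalization kept 3 of the 9 calls, those of the EGR1 and CCND1 leading regions and the ETV4 region. It called 1.20% of all shared regions. Gaps in the peak numbering touched each of the 9 called regions in some list, so a higher summit may be unlisted there. They were fewest at SPRY4, with 0 and 0 in the 5-azacytidine lists and 0 and 1 in the untreated lists. At the SPRY2 leading region and the EGR1 region that fell they touched all 4 lists.

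**Figure D2:**
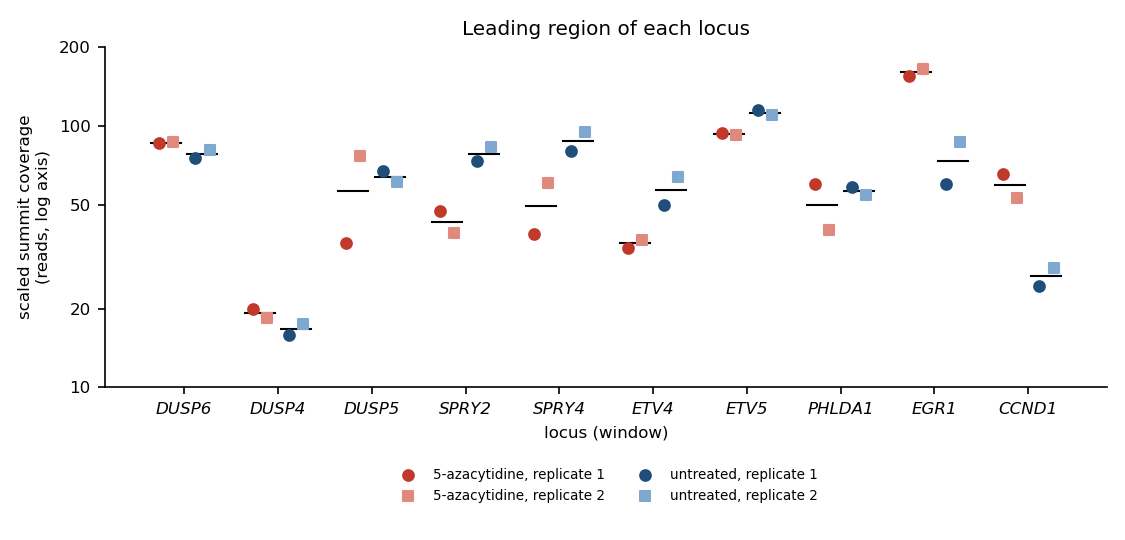
Scaled summit coverage (y axis, reads, log axis) in the leading region of each locus, the shared region with the highest mean coverage (x axis, locus). Each point is 1 library, 5-azacytidine in red and untreated in blue, with bars at group means. Both red points lie above both blue points at DUSP6, DUSP4, EGR1 and CCND1 and below them at SPRY2, SPRY4, ETV4 and ETV5. Only the EGR1, CCND1, SPRY2 and SPRY4 regions passed the test. The DUSP4, EGR1 and CCND1 regions led their windows only through their 5-azacytidine values.

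DUSP6 encodes the cytoplasmic phosphatase most specific for ERK, and DUSP4 and DUSP5 encode nuclear ones. None of their leading regions passed the test with all 4 libraries. At DUSP6 (window chr12:89720-89770 kb) the leading region, chr12:89768925-89770012 at the upper edge of the window, had 60 and 85 reads with 5-azacytidine, against 104 and 88 untreated. After scaling these were 85.6 and 86.8 reads against 75 and 81.1 untreated, a log2 difference of 0.14 ± 0.19 (SE) with an adjusted p of 0.727. The scaled values were thus nearly equal within each group, and the other 7 shared regions of the window, with log2 differences from -0.43 to 1.01, gave no call either.

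DUSP4 (chr8:29170-29230 kb) had the lowest leading region of the 10 loci. That region, chr8:29172143-29173523, had 14 and 18 reads with 5-azacytidine and 22 and 19 untreated, a log2 difference of 0.19 ± 0.35 after scaling (SE, adjusted p = 0.807). Of its 5 shared regions 4 had a negative difference, and their median was -0.35. With this SE a fall as large as those called at SPRY2 and SPRY4 could be missed. At ETV4 a difference of -0.86 ± 0.36 (SE) did not pass.

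DUSP5 (chr10:112235-112290 kb) had the most shared regions, 19. The leading one, chr10:112270755-112273038, had 25 and 75 reads with 5-azacytidine, against 93 and 66 untreated. The 2 treated libraries disagreed there, at 35.7 and 76.6 scaled reads, on either side of the untreated 67.1 and 60.9, and the log2 difference was -0.28 ± 0.23 (SE, adjusted p = 0.517). It was 0.24 without 5-azacytidine replicate 1 and -0.85, which passed (adjusted p = 0.0190), without 5-azacytidine replicate 2. The next shared region, chr10:112273350-112273936, 1.75 kb from it centre to centre, had 12 and 14 reads with 5-azacytidine and 7 and 7 untreated. This weak region rose, by 1.31 ± 0.40 (log2, SE) at an adjusted p of 0.0397. It was no longer called at a mean scaled coverage of at least 10, where the adjusted p was 0.0572. Nor was it called without 5-azacytidine replicate 1 (0.231), 5-azacytidine replicate 2 (0.071) or untreated replicate 2 (0.137).

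SPRY2 and SPRY4 encode feedback inhibitors of receptor tyrosine kinase signalling to RAS, and at both the leading region lost coverage with 5-azacytidine. At SPRY2 (chr13:80890-80940 kb) the region chr13:80913900-80916346 had 33 and 38 reads with 5-azacytidine, against 102 and 90 untreated. After scaling these were 47.1 and 38.8 reads against 73.6 and 83.0 untreated, which do not overlap; the log2 difference was -0.86 ± 0.22 (SE, adjusted p = 0.0134). Without untreated replicate 2 the adjusted p was 0.199. The 2 nearest shared neighbours did not pass the test, with differences of 0.04 and 0.07.

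At SPRY4 (chr5:141670-141725 kb) the leading region, chr5:141721764-141722277, is a single 514 bp interval whose best summits lay within 14 bp of each other in the 4 lists. It had 27 and 59 reads with 5-azacytidine, against 111 and 103 untreated. Scaled coverage was 38.5 and 60.2 against 80.0 and 95.0 untreated, a log2 difference of -0.84 ± 0.22 (SE, adjusted p = 0.0124). 5-Azacytidine replicate 1 was the lowest of the 4, and without it the adjusted p was 0.183. Without untreated replicate 2 it was 0.211. The other 16 shared regions of the window gave no call. The larger number of peaks at this locus under 5-azacytidine therefore stood beside a lower leading region.

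ETV4 and ETV5 are ETS factors of the PEA3 group, induced by ERK and active at ERK target genes. At ETV4 (chr17:41585-41645 kb) the strongest region, chr17:41622656-41624094, had 24 and 36 reads with 5-azacytidine, against 69 and 69 untreated. Scaled values of 34.2 and 36.8 against 49.8 and 63.6 untreated did not overlap, but the log2 difference of -0.65 ± 0.24 (SE) did not pass, with an adjusted p of 0.104. The neighbouring chr17:41621881-41622404 had 9 and 11 reads against 32 and 24 untreated, a difference of -0.86 ± 0.36 (SE, adjusted p = 0.154).

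At -20.1 kb from the ETV4 leading region, the region chr17:41602430-41604082 changed in the other direction. It had 12 and 17 reads with 5-azacytidine and 7 and 4 untreated, with 3 and 3 listed peaks against 1 and 1 untreated. Its log2 difference of 1.78 ± 0.40 (SE, adjusted p = 0.00392), 3.43-fold, was the largest of the 99. In the untreated lists it was a faint peak, and the 4 reads of untreated replicate 2 are the lowest coverage that the lists hold. Of all peaks in the untreated lists 68.3% and 93.7% were stronger, against 21.6% and 23.9% in the 5-azacytidine lists. Without untreated replicate 2 its adjusted p was 0.0955.

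ETV5 (chr3:185745-185850 kb) had 4 shared regions, and all 4 differences were negative, from -0.74 to -0.17, with no call. The leading region chr3:185826665-185828386 had 66 and 90 reads with 5-azacytidine, against 159 and 119 untreated. After scaling it was among the strongest of the 10 loci, at 94.2 and 91.9 against 114.7 and 109.7 untreated (log2 difference -0.27 ± 0.18, SE; adjusted p = 0.408). That size is close to the median of -0.25 for all shared regions of 50 or more scaled reads.

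PHLDA1 encodes a pleckstrin-homology-like protein whose transcript follows ERK activity. Its leading region (window chr12:76400-76445 kb), chr12:76423621-76427420, had 42 and 39 reads with 5-azacytidine, against 81 and 59 untreated, and the scaled groups overlapped (log2 difference -0.20 ± 0.23, SE; adjusted p = 0.669). The region chr12:76428691-76429755, 3.70 kb on, had 9 and 7 reads with 5-azacytidine and 4 and 4 untreated. It rose by 1.32 ± 0.38 (log2, SE, adjusted p = 0.0292), but the untreated values are at the lowest coverage that the lists hold, so a list without a peak there would have left it untested. Its adjusted p was 0.261 without 5-azacytidine replicate 1 and 0.131 without untreated replicate 2.

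**Figure D3:**
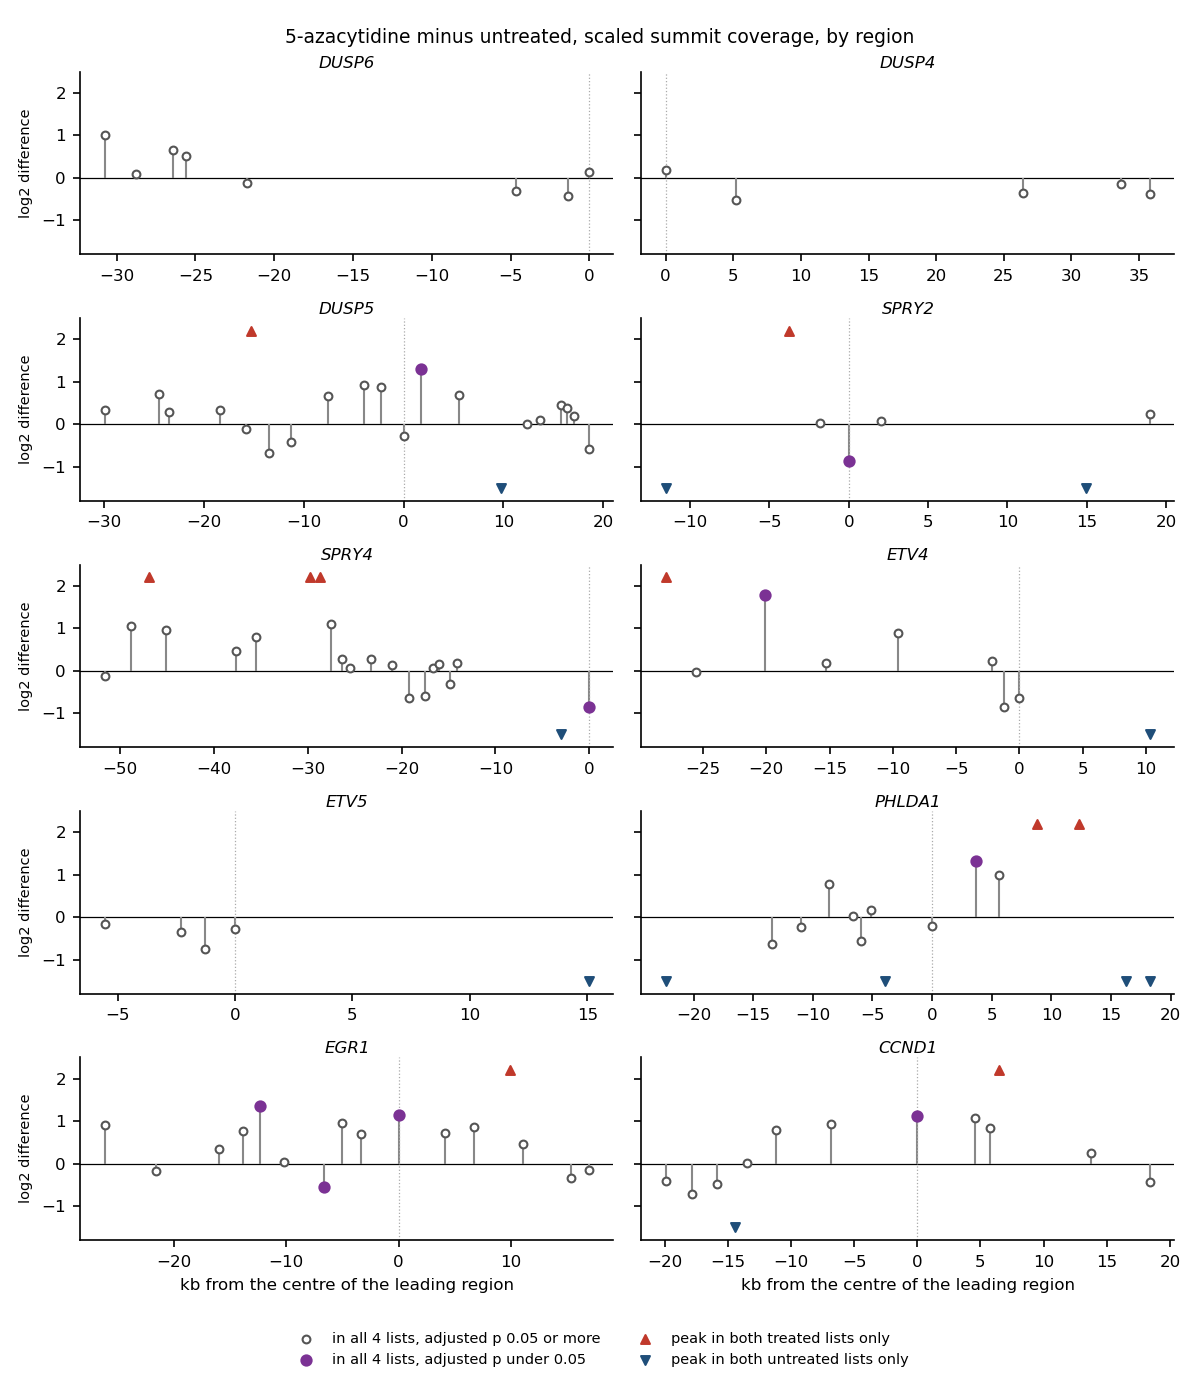
Log2 difference in scaled summit coverage, 5-azacytidine minus untreated (y axis), of each shared region against its distance from the centre of the leading region of the locus (x axis, kb, in genome order). Filled circles have an adjusted p under 0.05, and triangles mark regions with peaks in both lists of 1 group only (red and upward for 5-azacytidine, blue and downward for untreated); EGR1 and CCND1 have runs of positive differences around the leading region, and ETV5 has no positive one.

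EGR1 encodes an immediate-early zinc finger transcription factor and had the lowest adjusted p of the 99 regions. In its window (chr5:137780-137825 kb) the leading region chr5:137805294-137809555 had 109 and 162 reads with 5-azacytidine, against 83 and 94 untreated. Scaled coverage was 156 and 165 against 59.9 and 86.7 untreated, a log2 difference of 1.14 ± 0.18 (SE, adjusted p = 1.35e-05) or 2.21-fold. It ranked very high among the 5-azacytidine peaks, where 0.0104% and 0.00857% of peaks were stronger, against 3.03% and 0.812% in the untreated lists. The region is 4262 bp long and held 7 and 6 peaks with 5-azacytidine and 8 and 8 untreated, with the best summits within 359 bp. Gaps in the peak numbering touched this region, 5 and 5 in the 5-azacytidine lists and 5 and 3 in the untreated lists. A gap can hold several missing summits, and summits that are not listed could not be compared. The call held without either 5-azacytidine library and without untreated replicate 2.

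The region chr5:137800168-137801326, at -6.68 kb from the centre of the leading one, moved the opposite way. It had 71 and 75 reads with 5-azacytidine, against 187 and 137 untreated. Scaled coverage was 101 and 76.6 against 134.9 and 126.3 untreated (log2 difference -0.56 ± 0.18, SE; adjusted p = 0.0470). This fall was close to the threshold: with peaks joined across 150 bp, with peaks of −log10 q 5 or more and with the authors' peak score, the adjusted p was 0.182, 0.0748 and 0.0667. Without 5-azacytidine replicate 2 it was 0.202, and without untreated replicate 2 it was 0.188. The highest coverage in the window was thus in the leading region in the 5-azacytidine libraries, and in the region that fell in the untreated libraries.

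Another EGR1 region, chr5:137794612-137795535, was weak and rose, with 11 and 16 reads with 5-azacytidine and 6 and 8 untreated (log2 difference 1.35 ± 0.40, SE; adjusted p = 0.0344). It was no longer called at a mean scaled coverage of at least 10 (adjusted p = 0.0505) or with peaks joined across 150 bp (0.0837). Without 5-azacytidine replicate 1, 5-azacytidine replicate 2 or untreated replicate 2 the adjusted p was 0.145, 0.102 and 0.0772. Of the 15 shared regions of the window 11 had a positive difference, with a median of 0.71, the highest of the 10 loci. The 2 shared regions between the falling region and the leading one, chosen after their values were seen, had differences of 0.96 and 0.71 with adjusted p of 0.0798 and 0.106. A strong neighbour could not be tested: chr5:137798984-137800151, also chosen after its values were seen, had 57 and 96 reads with 5-azacytidine, no listed peak in untreated replicate 1 and 136 reads in untreated replicate 2. In untreated replicate 1 a number or summit was missing between the listed peaks on either side of it. Where in that stretch it lay is not known, so the empty entry does not show that coverage was low.

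CCND1 encodes cyclin D1, the partner of CDK4 and CDK6 that carries growth signals into the cell cycle. Its leading region (window chr11:69435-69490 kb) is a chain of merged peaks, chr11:69467494-69475260. It had 46 and 52 reads with 5-azacytidine, against 34 and 31 untreated, and 12 and 13 listed peaks against 10 and 8 untreated. Scaled coverage was 65.6 and 53.1 against 24.5 and 28.6 untreated, a log2 difference of 1.13 ± 0.26 (SE, adjusted p = 0.00429) or 2.19-fold. The best summits of the 4 lists spanned 1375 bp, so the highest point was not at 1 place in all of them. Gaps in the peak numbering touched this region too, 7 and 7 in the 5-azacytidine lists and 6 and 4 in the untreated lists. Without 5-azacytidine replicate 1 the adjusted p was 0.067.

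The regions beside it followed the same direction without passing the test. The 2 shared regions before it and the 2 after it, a run named after its values were seen, had differences of 0.80, 0.94, 1.06 and 0.85, with adjusted p from 0.110 to 0.218. Farther out the sign turned at chr11:69452950-69454199, also chosen after its values were seen, at -17.8 kb from the centre of the leading region. This outer region had 19 and 33 reads with 5-azacytidine, against 60 and 64 untreated (log2 difference -0.72 ± 0.26, SE, adjusted p = 0.0859). In the untreated libraries this outer region was the stronger of the pair in scaled coverage (43.3 and 59.0 reads against 24.5 and 28.6 in the leading region), and in the 5-azacytidine libraries the leading region was (65.6 and 53.1 reads against 27.1 and 33.7).

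**Figure D4:**
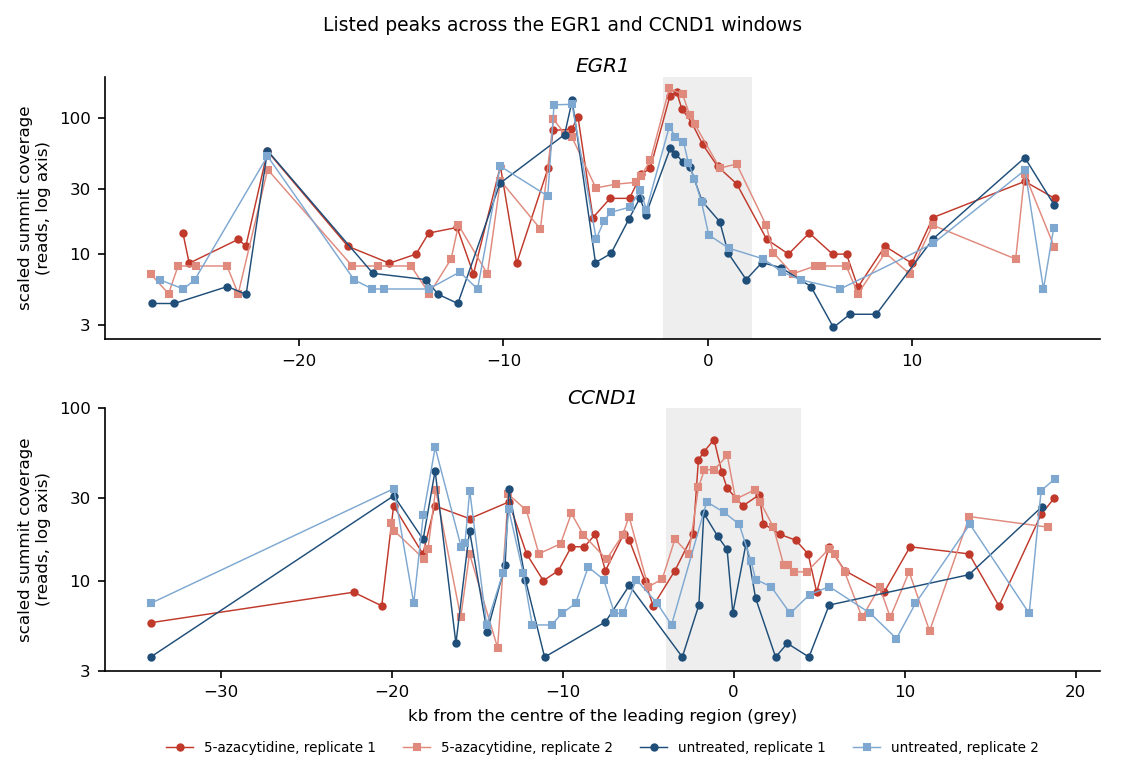
Scaled summit coverage (y axis, reads, log axis) of every listed peak in the EGR1 and CCND1 windows against the distance from the centre of the leading region (x axis, kb), with lines joining peaks of 1 library and the leading region in grey. Within the grey regions the red 5-azacytidine libraries run above the blue untreated libraries, and about 7 kb before the EGR1 leading region the untreated libraries have their highest peaks.

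The direction of a difference went with the strength of the region. Of the 29 shared regions with a mean of 30 or more scaled reads, a split chosen after seeing the data, 10 had positive and 19 negative differences. Their median was -0.20, close to -0.22 for all shared regions of that strength. Among these strong regions 2 rose (EGR1 and CCND1 leading; background 1.11%) and 3 fell (SPRY2, SPRY4 and EGR1; background 7.54%). The mean over both groups sets this split: the CCND1 leading region averaged 59.4 scaled reads with 5-azacytidine and 26.6 untreated, so it counts as strong, and as leading, only through the 5-azacytidine libraries. The EGR1 leading region also led its window only through them, at 160.5 reads with 5-azacytidine and 73.3 untreated. The region that fell there had 88.9 and 130.6. Likewise the DUSP4 leading region led only through the 5-azacytidine libraries, at 19.2 reads against 16.7 untreated. In that window chr8:29207359-29209943, chosen after its values were seen, had 14.5 and 19.2. Of the 70 weaker regions 4 rose (background 2.18%) and 0 fell (background 1.02%). Their median was 0.30, against 0.099 for all shared regions under 30 reads. Over all 99 the median was 0.15, against 0.01 over all shared regions, and 62 were positive (62.6%, against 50.5% of all). Scaling centres the shared regions as a whole. Unscaled, the median difference was -0.39 in the 99 and -0.52 in all shared regions.

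**Figure D5:**
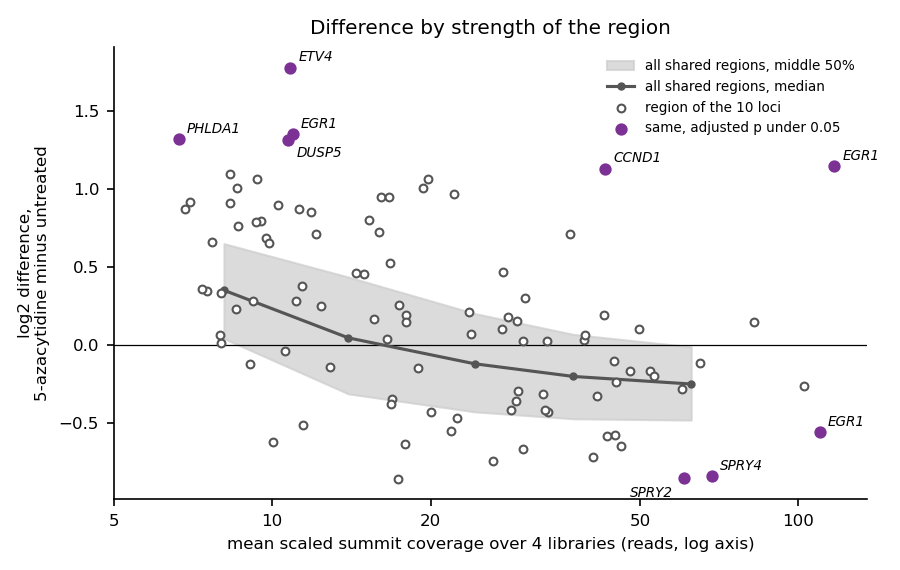
Log2 difference, 5-azacytidine minus untreated (y axis), against mean scaled summit coverage (x axis, reads, log axis) for the 99 shared regions, with filled circles for an adjusted p under 0.05. The line and grey band give the median and middle 50% of all 105414 shared regions, which slope downward; the EGR1 and CCND1 leading regions lie above the band, the CCND1 region past 30 reads only through its 5-azacytidine values.

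Regions present in 1 group only were few and weak. The 10 gained regions were 4.57% of the members, against 4.21% of all regions, and the 11 lost ones 5.02%, against 3.35%. The gained regions had 4 to 13 reads and the lost ones 4 to 10, with 0 of either at 10 or more reads in both lists. The crossed classes, with 1 list from each group, held 5, 1, 5 and 4 regions here and 6321 to 9026 over all regions, beside 15707 gained and 12522 lost over all regions.

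The strongest gained region was chr10:112256343-112256866 in the DUSP5 window, with 8 and 13 reads in the 5-azacytidine libraries. Next came chr11:69477616-69478123 at CCND1 with 8 and 11 reads and chr12:76434055-76434584 at PHLDA1 with 9 and 9 reads. SPRY4 had 3 gained regions, chr5:141674829-141675366, chr5:141691957-141692630 and chr5:141692861-141693912, each with 5 or 6 reads in either library. The others were chr5:137817063-137817664 at EGR1 (6 and 7 reads), chr12:76437499-76438270 at PHLDA1 (7 and 4), chr17:41594942-41595911 at ETV4 (6 and 6) and chr13:80911058-80911654 at SPRY2 (4 and 4). In 9 of the 10 a peak number or summit was missing between the listed peaks on either side in an untreated list, against 39.7% of all gained regions. Those peaks can be several kb apart, and neighbouring regions can share 1 gap, as those at PHLDA1 did. Whether a peak was taken out at a gained region itself was not tested. The exception was the CCND1 region.

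PHLDA1 had 4 of the 11 lost regions. They were chr12:76402890-76403445 (6 and 6 reads in the untreated libraries), chr12:76421234-76421843 (6 and 5), chr12:76441535-76442040 (8 and 5) and chr12:76443559-76444075 (10 and 8). SPRY2 had 2, chr13:80903343-80903843 (9 and 4) and chr13:80929811-80930343 (8 and 7). The remaining 5 were chr3:185842331-185842874 at ETV5 (9 and 8), chr10:112281425-112281956 at DUSP5 (8 and 6), chr5:141718697-141719262 at SPRY4 (7 and 6), chr11:69456680-69457206 at CCND1 (7 and 6) and chr17:41633352-41634076 at ETV4 (5 and 7). In 6 of the 11 a number or summit was missing between the listed peaks on either side in a 5-azacytidine list, against 36.1% of all lost regions. The windows of DUSP6 and DUSP4 had neither gained nor lost regions.

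The other 99 regions were in 1, 2 or 3 lists without following the groups. Of the 54 regions in a single list, 28 were in 5-azacytidine replicate 1 alone and 10 in 5-azacytidine replicate 2 alone, against 4 in untreated replicate 1 and 12 in untreated replicate 2. They had 4 to 18 reads. 5-Azacytidine replicate 1, with 28 of the 54, had the longest list (259572 peaks) and the lowest median coverage in shared regions. The share of single-list regions over all regions is not given here, so these counts are not read as particular to the 10 loci.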

How the data were processed

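ATAC-seq of 2 treated and 2 untreated BCPAP libraries was analysed from 1 deposited peak list per library on hg19. Trimmomatic, Bowtie2, Picard and MACS2, and the hg19 build, are named in the submitters' processing notes. Versions, settings and any shift of read ends for the transposase are not given in the sources used. Peaks were called per library, per the peak names in the deposited lists, and intervals were set to 500 bp by the authors. The authors scaled the peak score so that each list sums to 1000000. The deposited −log10 p and −log10 q values and the deposited fold enrichment are the peak caller's own, and another deposited column gives the summit offset, used only to read the layout of the lists. Fold values were whole multiples of 1 step per list (within 0.001 of a step), and the step gave summit coverage in reads over a uniform background of 0.898 and 0.875 reads (5-azacytidine) and 0.913 and 0.898 reads (untreated).

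Peaks sharing at least 1 bp were merged. Shared regions were tested with limma 3.58.1 (trend, group term) in R 4.3.3 on log2(coverage divided by a median-of-ratios factor, plus a pseudocount of 1). Peak totals were compared by an exact permutation test. Named regions are the leading, gained, lost and called regions and the 3 largest and 3 smallest differences; others are said to be chosen after their values were seen. Windows and lists were chosen with earlier results of these data known. Same-numbered libraries did not deviate together (correlation -0.05 over shared regions), so numbers were not used as pairs. Fit and merging were tested on simulated data. Alternatives were other scalings, the authors' score, a pseudocount of 0, a coverage of at least 10, peaks of −log10 q 5 or more, joining across 150 bp, a 50% overlap, equal list lengths, a replicate block and each library left out. The split at 30 reads, missing numbers and summits with 100 bp on either side were chosen after seeing the data.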

Additional observations from a re-analysis of the deposited data

How the results depend on the processing

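Without scaling, or without untreated replicate 1, limma called 0 regions genome-wide, so 0 rose and 0 fell here, and the unscaled median turned to -0.39. Quantile normalization left 3 higher regions and 0 lower, beside 1.20% of all shared regions called in either direction. The 3 were EGR1 leading (1.31), CCND1 leading (1.29) and the ETV4 region (1.60). A mean coverage of at least 10 left 78 regions tested here, with 3 higher, 3 lower and a median of 0.034. In that setting 5.18% of all tested regions were called in either direction. Summits with 100 bp on either side gave 10 higher and 3 lower of 80 tested, beside 4.46% of all tested regions. Leaving out single libraries gave 0 to 5 higher regions, 0 to 5 lower and a median of 0.082 to 0.22. The median was 0.11 with peaks of −log10 q 5 or more and 0.11 with peaks joined across 150 bp. The q filter kept 4 of the 9 calls, and the rises at ETV4, DUSP5 and PHLDA1 and the weak EGR1 rise had no value there. Gained regions numbered 6 when joined so, 32 with summits, 33 with an overlap of at least 50%, 1 without missing numbers and 22 to 41 with a library left out. Lost regions numbered 6 with the q filter, 19 with summits, 20 with the overlap, 5 without missing numbers and 14 to 23 with a library left out. The excess of peaks kept its direction, at log2 ratios of 0.10 to 0.25 over the alternatives. With the replicate block, though the numbers were not found to pair libraries, the log2 ratio of peaks was 0.18 with a smallest possible exact p of 0.5, and 5 regions rose and 3 fell, the PHLDA1 region missing the threshold at an adjusted p of 0.0538; it changed no other call. Differences of 4 leading regions without a call turned sign: DUSP6 (-0.42) and DUSP4 (-0.35) without scaling, where the median of all shared regions is -0.52, PHLDA1 (0.011) with quantile normalization, and DUSP5 (-0.85 to 0.24), PHLDA1 (-0.51 to 0.058) and DUSP4 (-0.024 to 0.21) with a library left out. Of 203 alternatives for named regions 46 lost a call and 1 gained one (DUSP5 leading, without azacytidine replicate 2); the causes were not tested. Peaks under 4 reads are not listed, and what depth does to weak regions was not tested.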
